A study of Mus musculus with 24 samples.

Results

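The 28 genes described here encode nuclear receptors other than the PPARs, their RXR partners, the thyroid hormone receptors and the clock receptors of the REV-ERB type. They were taken as a fixed list of gene names: the liver X receptors Nr1h2 and Nr1h3, the xenobiotic receptors Nr1i2 and Nr1i3, the vitamin D receptor Vdr, the orphan receptors Nr2c1, Nr2c2, Nr2f1, Nr2f2, Nr2f6 and Nr6a1, the corticosteroid receptors Nr3c1 and Nr3c2, the sex steroid receptors Esr1 and Pgr, Nr4a1 to Nr4a3, Hnf4a and Hnf4g, Esrra, Esrrb and Esrrg, Rara, Rarb and Rarg, and Rora and Rorb. All 28 were on the array, out of 37074 gene names, and 25 of them were among the 21331 genes tested. Rorb, Vdr and Pgr were not tested because too few arrays showed them well above background.

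Livers came from 24 male C57Bl/6J mice in 4 groups of 6. LWT mice express PPARα in hepatocytes and LKO mice do not, according to the title of the series. The allele, promoter or Cre driver behind LKO is not given in the sources used here. Mice of each genotype were gavaged at Zeitgeber time 10 h with CL316243, a drug that activates beta3 adrenoceptors, at 3 mg/kg, or with its vehicle of 0.5% carboxymethyl cellulose. The animals ate standard chow freely, and all livers were taken at Zeitgeber time 16 h, in the dark phase. The comparison asks how the agonist changes the liver transcriptome and how this depends on hepatocyte PPARα. A level below is the log2 signal of a gene's probe relative to the 75th percentile of its array, so it compares mice for one gene and does not rank genes. A gene was called higher or lower at a Benjamini-Hochberg adjusted p under 0.05 in limma, with all 21331 genes in the adjustment.

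Nuclear receptors are transcription factors, most of which bind a small lipid-soluble ligand and then recruit coactivators or corepressors to response elements in DNA. Steroid receptors bind mainly as homodimers, whereas the liver X, xenobiotic, vitamin D and retinoic acid receptors bind as heterodimers with RXR. Orphan receptors such as NR4A, COUP-TF and the oestrogen-related receptors act with no classical ligand, and NR4A activity is set largely by how much of the protein is made. In liver these receptors govern bile acid, lipid, glucose and drug metabolism.

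The NR4A genes are textbook immediate early genes of cAMP signalling, so the 250 bases before their transcription starts are shown with every cAMP response element half-site in capitals. The letters searched were TGACG on either strand, which reads CGTCA on the opposite strand. The sequences are RefSeq's, build GRCm38.p6, at chr15:101266596-101266845 (plus strand), chr2:57124004-57124253 (minus strand) and chr4:48045055-48045304 (plus strand).
Nr4a1: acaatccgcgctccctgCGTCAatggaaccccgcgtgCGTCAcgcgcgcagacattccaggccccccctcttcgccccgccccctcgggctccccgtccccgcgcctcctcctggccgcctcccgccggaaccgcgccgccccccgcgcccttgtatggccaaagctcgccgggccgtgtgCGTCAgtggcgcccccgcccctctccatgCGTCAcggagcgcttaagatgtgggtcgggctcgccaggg
Nr4a2: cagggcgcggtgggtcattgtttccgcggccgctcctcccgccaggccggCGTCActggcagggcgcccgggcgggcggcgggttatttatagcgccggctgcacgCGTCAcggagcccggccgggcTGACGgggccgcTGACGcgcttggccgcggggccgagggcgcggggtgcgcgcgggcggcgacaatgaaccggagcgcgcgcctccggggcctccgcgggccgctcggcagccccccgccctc
Nr4a3: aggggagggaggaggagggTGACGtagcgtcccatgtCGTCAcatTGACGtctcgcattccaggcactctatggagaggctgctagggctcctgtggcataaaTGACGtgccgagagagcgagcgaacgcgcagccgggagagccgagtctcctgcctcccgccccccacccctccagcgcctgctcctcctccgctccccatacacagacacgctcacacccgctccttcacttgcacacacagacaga

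Each of the 3 windows held 4 half-sites. At least 4 were found in 45 of 32851 windows of the same length in the RefSeq table (0.137%), and among the 40 windows of 26 members only these 3 reached that number. The uninterrupted palindrome TGACGTCA, 2 overlapping half-sites, occurred in 1.55% of all windows and in 0 of the 40 member windows. These are matches of letters and say nothing of binding in these livers. No windows were found for Nr3c1 and Hnf4g.

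A second sequence is shown because Rarb is both a retinoic acid receptor and a classical target of one. The window of Rarb (chr14:16575477-16575568, minus strand, the 92 bases before its start) carried a retinoic acid response element, searched as GTTCA, any 5 bases and AGTTCA, in capitals. The fixed letters of the pattern are those of the Rarb element itself, so its match in Rarb is no finding. That pattern, read on both strands, lay in 9 of 32851 windows (0.0274%), that of Rarb among them. One of the others belonged to Cyp26a1, the enzyme that degrades retinoic acid, shown at chr19:37697736-37697807 (plus strand), where the element reads on the opposite strand. Cyp26a1 was picked for this after its values were seen.
Rarb: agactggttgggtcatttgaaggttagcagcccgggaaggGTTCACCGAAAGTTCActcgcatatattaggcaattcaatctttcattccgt
Cyp26a1: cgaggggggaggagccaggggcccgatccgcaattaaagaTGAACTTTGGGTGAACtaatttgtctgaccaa

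Over all 24 arrays the 75th percentile of intensity ran from 397.4 to 577.7, and 26985 to 34202 of 56605 probes were well above background. The groups overlapped in both measures. The agonist arrays peaked at a lower 75th percentile, 503.9 for LWT and 502.2 for LKO, against 577.7 and 548.7 for the vehicle arrays. The lowest value, 397.4, was nevertheless from an LKO vehicle array. In the fit with array weights, LKO agonist replicate 3 had the lowest weight, 0.2. Ppara itself, whose probe need not lie in the deleted part, was at 4.81 to 5.18 in the LKO vehicle livers and at 5.45 to 5.93 in the LWT vehicle livers, with no overlap, but the difference of −0.68 was not called (adjusted p = 0.158). Under CL316243 it was −1.91 (adjusted p = 3.6e-07). Hepatocyte marker genes were called in 0 of 6 cases in LWT and 1 of 6 in LKO, where Apoa1 was lower. Of 5 cholangiocyte markers, Sox9 was higher in both genotypes and Spp1 in LKO, and their summed signal was 3.67 to 6.47 and 4.19 to 14.1 in LWT and 3.51 to 6.70 and 7.08 to 14.1 in LKO, under vehicle and agonist. Of 4 tested T and B cell markers, 2 were lower in each genotype, Ms4a1 in both, and Cd3e was higher in LKO. Their part in the members' results was not tested. Of the mice given the agonist, LWT replicate 3 was the lowest of its group for 17 of 25 members and LKO replicate 3 for 11 of 25, so calls were also made without both. Without them 14 of 14 calls remained in each genotype, and calls were gained for Rora in LWT (0.38, adjusted p = 0.0296), Nr1i2 in LKO (0.44, adjusted p = 0.0134) and, in comparisons between genotypes, for Nr1i3, Nr2f2, Nr2c1 and Esrra. The arrays lay on 3 slides with 2 mice of every group on each.

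With CL316243, 14 of 25 members changed in LWT, 6 higher and 8 lower (56%), against 38.3% of all genes tested, 18.9% higher and 19.4% lower. In LKO, 14 of 25 changed as well, 5 higher and 9 lower (56%), against 40.3% of all genes, 20.9% higher and 19.4% lower. The median absolute log2 change of the members was 0.54 in LWT and 0.49 in LKO, beside 0.25 and 0.26 for all genes. The 6 mice of one group did not overlap the 6 of the other for 9 members in each genotype, 36% against 20.4% of all genes in LWT and 20.8% in LKO. There were 10 members called in both genotypes, all in the same direction: Nr2c2, Nr4a1, Nr4a2 and Hnf4a were higher, and Nr2f6, Nr3c1, Nr3c2, Nr6a1, Esr1 and Esrra were lower. Each of the 28 calls kept its sign on all 3 slides taken alone. In whole liver, a lower level can mean fewer cells of a type or less RNA per cell, and these cannot be told apart.

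**Figure D1:**
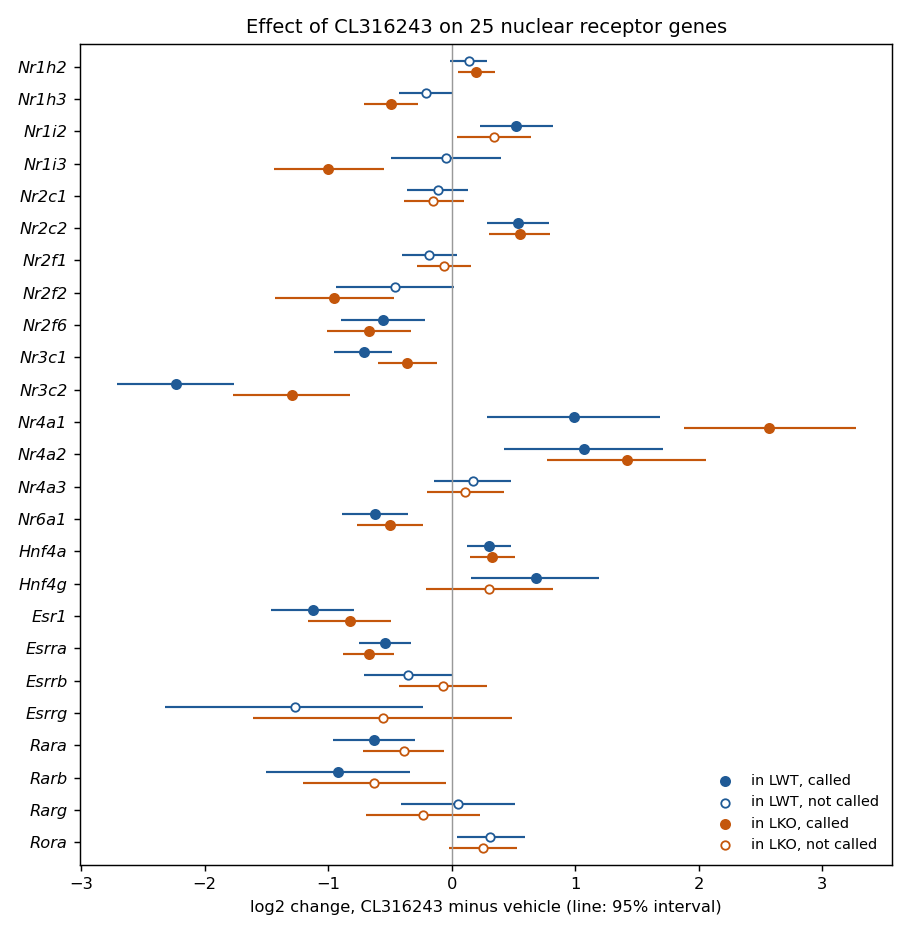
Log2 change with CL316243 against vehicle for the 25 members tested, in LWT (blue) and LKO (orange), with 95% intervals; filled points were called. Nr4a1 and Nr4a2 lie farthest to the right and Nr3c2 farthest to the left, and the change of Nr4a1 is 0.99 in LWT and 2.57 in LKO.

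Nr4a1 (Nur77), an orphan receptor induced by cAMP that raises hepatic gluconeogenic genes, rose in both genotypes. Its level was lowest −1.25, median −0.90 and highest −0.66 in LWT vehicle and −0.72, −0.10 and 1.21 with the agonist. In LKO it was −1.24, −1.02 and −0.64 under vehicle and 0.50, 1.24 and 3.14 with the agonist. The LWT groups overlapped by 1 treated mouse just below the highest vehicle mouse, whereas every treated LKO mouse lay above every LKO vehicle mouse. The change was 0.99 (SE 0.34, 1.99-fold, adjusted p = 0.023) in LWT and 2.57 (SE 0.34, 5.96-fold, adjusted p = 4.76e-06) in LKO. The LWT call was lost without LWT agonist replicate 1, the highest mouse (0.76, adjusted p = 0.0697). Within slides 1, 2 and 3 the LKO change was 3.64, 2.27 and 1.81, and slide 1 held both of the highest LKO mice. The single Nr4a1 probe lies at chr15:101105071-101105130 (build mm9), from base 2321 of its transcript.

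Nr4a2 (Nurr1), a close relative that binds the same element, also rose. Its levels were −3.95, −3.15 and −2.87 in LWT vehicle and −2.57, −2.35 and −1.57 with the agonist. In LKO they were −4.05, −3.57 and −3.34 under vehicle and −3.11, −2.56 and −0.74 with the agonist. Neither pair of groups overlapped. Of the treated LKO mice, 2 were at −0.74 and −1.29, and the other 4 were at −3.11 to −2.49. The changes were 1.07 (SE 0.31, adjusted p = 0.00951) and 1.42 (SE 0.31, adjusted p = 0.00103), and a second probe gave 1.45 and 1.82. With normexp background correction they were 0.60 and 0.81, both still called.

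Nr4a3 (Nor1), the third member of the subfamily, was not called: its log2 change was 0.17 (95% interval −0.14 to 0.48) in LWT and 0.11 (−0.20 to 0.42) in LKO. Its levels ran from −3.48 to −2.30 over the 24 mice. This holds for the brightest probe, from base 403 of its transcript. Of the other probes, one near base 2003 was well above background on 1, 0, 0 and 2 of 6 arrays in the order LWT vehicle, LWT agonist, LKO vehicle and LKO agonist, which gives no level to compare.

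**Figure D2:**
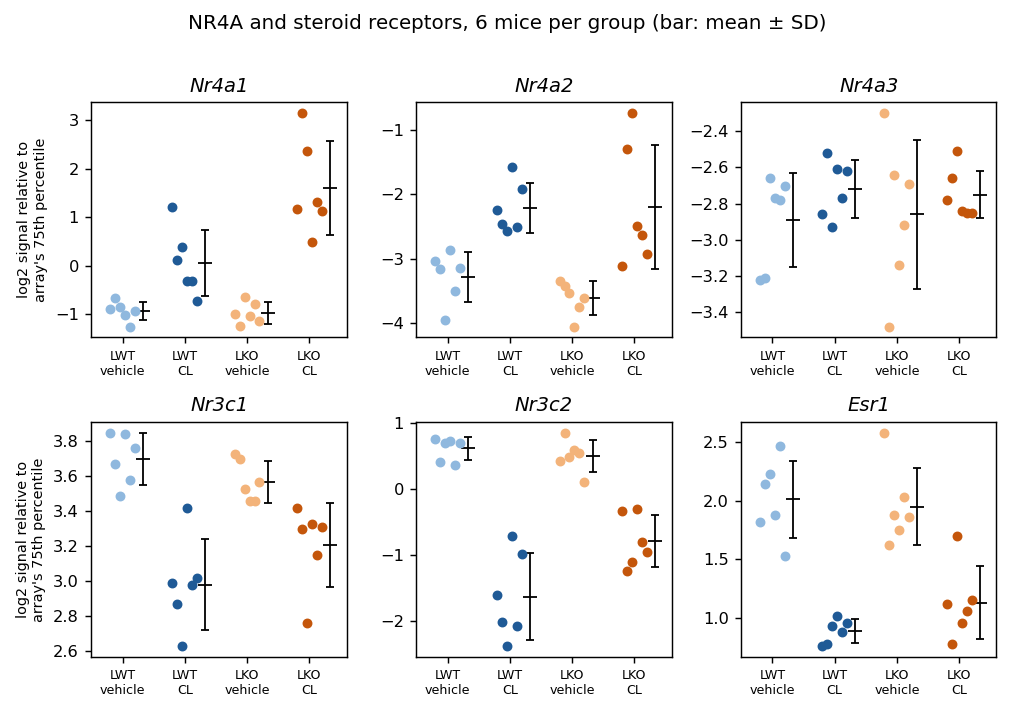
Level (log2 signal relative to the 75th percentile of the array) of 6 receptors in each of 24 mice, with the mean and SD of each group of 6 as a black bar. All treated LKO mice lie above the LKO vehicle mice for Nr4a1, and all treated mice lie below the vehicle mice of their genotype for Nr3c1 and Nr3c2.

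Neutrophil markers also rose with the agonist. Of 5 markers, S100a8, S100a9 and Retnlg were higher in both genotypes, and Ly6g was lower in LWT. Their summed signal, relative to the 75th percentile, was 1.89 to 5.13 in LWT vehicle, 1.99 to 13.5 in LWT agonist, 2.02 to 3.18 in LKO vehicle and 3.44 to 47.1 in LKO agonist livers. The LKO mice with the highest sums, 19.4 in replicate 2 and 47.1 in replicate 3, also had the highest Nr4a1, 3.14 and 2.36. The same 2 mice had the highest Nr4a2 of the LKO agonist group, −1.29 and −0.74. In LWT, the highest sums, 13.5 in replicate 3 and 13.3 in replicate 1, likewise stood beside the highest Nr4a1, 0.39 and 1.21, whereas the highest Nr4a2, −1.57, was in replicate 4, which had the lowest sum, 1.99. Their part in the NR4A result was not tested.

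The list of NR4A targets and cAMP response genes held 20 tested genes, Nr4a1 and Nr4a2 among them. In LWT 8 rose and 2 fell, with a median log2 change of 0.31 beside 0.01 for all genes, and in LKO 7 rose and 1 fell, with a median of 0.44 beside 0.03. Of all genes, 18.9% rose and 19.4% fell in LWT, and 20.9% rose and 19.4% fell in LKO. The immediate early genes Fos and Junb and the cAMP-induced repressor Crem were higher in both genotypes. Eno3 was lower in both, and Ppargc1a was lower in LWT. The interaction was called for Ppargc1a, higher in LKO, and for Fbp2, lower in LKO. Of the list's 4 brightest genes, none was called in either genotype: Fbp1 changed by 0.11 and 0.22, Pck1 by 0.34 and 0.29, Tat by 0.07 and 0.03, and G6pc by 0.12 and −0.95, in LWT and LKO in that order. These are enzymes of gluconeogenesis or amino acid breakdown.

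The corticosteroid receptors were lower after the agonist. Nr3c2, the mineralocorticoid receptor, which binds aldosterone and also cortisol and corticosterone, had the largest fall among the members. Its levels were 0.36, 0.69 and 0.76 in LWT vehicle and −2.38, −1.82 and −0.71 with the agonist. In LKO they were 0.11, 0.51 and 0.85 under vehicle and −1.25, −0.88 and −0.31 with the agonist. No treated mouse reached the vehicle mice of its genotype. The level fell by 2.23 (SE 0.23, 4.71-fold, adjusted p = 1.27e-07) in LWT and by 1.29 (SE 0.23, 2.45-fold, adjusted p = 0.000121) in LKO. The probe lies at chr8:79768704-79768763 (mm9), and 2 further probes were called lower in both genotypes. One of them gave −2.39 in LWT and −1.11 in LKO, well above background on 21 of 24 arrays. The other was well above background on 6, 1, 4 and 0 of 6 arrays in LWT vehicle, LWT agonist, LKO vehicle and LKO agonist, so its size is not measured.

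Nr3c1, the glucocorticoid receptor, was at 3.49, 3.71 and 3.85 in LWT vehicle and at 2.63, 2.98 and 3.42 with the agonist. The LKO mice were at 3.46, 3.55 and 3.73 under vehicle and at 2.76, 3.30 and 3.42 with the agonist. The groups did not overlap in either genotype. Its level fell by 0.71 (SE 0.11, adjusted p = 4.1e-05) in LWT and by 0.36 (SE 0.11, adjusted p = 0.0149) in LKO. The second probe gave −0.53 in LWT and −0.11 in LKO (adjusted p = 0.431), and with the mean of both probes the LKO change was −0.24 (adjusted p = 0.0633).

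Of 20 genes on the glucocorticoid receptor target list, 11 rose and 1 fell in LWT, with a median change of 0.58, and 8 rose and 1 fell in LKO, with a median of 0.50. For this list and those that follow, the values over all genes are medians of 0.01 in LWT and 0.03 in LKO, with 18.9% and 20.9% higher and 19.4% lower in each. The gene that fell in both was Tsc22d3, which encodes the glucocorticoid-induced leucine zipper protein. Mt1, a metallothionein, rose by 3.47 in LWT and 3.83 in LKO. Tdo2, the first enzyme of tryptophan breakdown, rose by 0.95 in LWT, with −0.19 in LKO, and it was the 1 gene of the list called for the interaction. Errfi1, an inhibitor of the EGF receptor, rose by 0.47 in LWT, with 0.31 in LKO. Several of these genes, Mt1 and Lcn2 among them, also respond to inflammation and metals.

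Esr1 is oestrogen receptor alpha, which in male liver takes part in lipid and growth hormone dependent regulation. Its levels were 1.53, 2.01 and 2.47 in LWT vehicle and 0.76, 0.90 and 1.02 with the agonist, with no overlap. In LKO they were 1.62, 1.87 and 2.58 under vehicle and 0.78, 1.09 and 1.70 with the agonist, where 1 treated mouse overlapped the vehicle mice. The level fell by 1.12 (SE 0.16, adjusted p = 1.12e-05) in LWT and by 0.82 (SE 0.16, adjusted p = 0.00033) in LKO.

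Esr1 was read by 7 probes along the gene, and they differed in size. The probe used lies at chr10:5341167-5341226 (mm9), from base 6039 of its transcript. The 4 probes well above background on all 24 arrays ran from −0.86 to −2.01 in LWT and from −0.98 to 0.00 in LKO. The other 3, well above background on 8, 10 and 12 of 24 arrays, were too dim for their sizes to be compared. A probe of another transcript form (chr10:5489352-5489411) fell by 0.86 in LWT, with 0.00 in LKO, and one at chr10:5674657-5674716 fell by 2.01 and 0.98. Under the agonist these were higher in LKO than in LWT, by 0.76 (adjusted p = 0.0087) and 1.19 (adjusted p = 0.00695) over all probes, whereas the probe used differed by 0.24 (adjusted p = 0.362). Whether the probes report different transcript forms was not tested.

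Pgr, the progesterone receptor, was well above background on 1, 0 and 0 of 24 arrays with its 3 probes on the gene's strand and on 4 with a probe of the opposite strand. Of 9 tested genes on the oestrogen and progesterone target list, 2 rose and 3 fell in LWT and 3 rose and 1 fell in LKO, with medians of 0.08 and 0.61. Mt1 is shared with the glucocorticoid list. Igfbp4, which binds insulin-like growth factors, fell by 0.28 in LWT, with −0.19 in LKO. Lifr, a cytokine receptor subunit, fell by 0.45 in LWT, with −0.32 in LKO.

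Esrra, the oestrogen-related receptor alpha, drives genes of mitochondrial respiration with the coactivator PGC-1. It stood at 3.66, 3.76 and 3.93 in LWT vehicle and at 2.77, 3.31 and 3.50 with the agonist. In LKO it stood at 3.57, 3.71 and 3.81 and at 2.76, 3.01 and 3.23. Neither pair overlapped. The level fell by 0.54 (SE 0.10, adjusted p = 0.000178) in LWT and by 0.67 (SE 0.10, adjusted p = 1.92e-05) in LKO, and a second probe fell by 0.48 and 0.79. Esrrb was not called, at −0.35 (95% interval −0.71 to 0.01) in LWT and −0.07 (−0.43 to 0.29) in LKO.

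Esrrg, a relative that is abundant in oxidative tissues, was called lower in LKO under vehicle. It passed the filter on dim probes only through the LWT groups, so a probe tested here had to be brighter there, and its call and its count below rest on that. Its level in LWT vehicle was −4.85, −3.15 and −2.59, well above background on 6 of 6 arrays, and with the agonist −6.80, −4.41 and −2.76, well above background on 4 of 6. In LKO 0 of 6 arrays were well above background in either group, with signals from −6.80 to −5.18 under vehicle and −7.60 to −5.92 with the agonist. The vehicle groups did not overlap. By a bound that holds for this processing only, Esrrg was at least 2.75-fold lower in LKO under vehicle. Under CL316243 it was at least 1.03-fold lower, where the bound is close to no difference. The adjusted p of 0.00285 under vehicle and 0.00528 under CL316243 belong to the limma fit of the signals as measured, not to the bounds. Under CL316243 the measured difference was −2.83, −0.19 and −3.29 on slides 1, 2 and 3. The bound sets each LKO array at the higher of its own signal and its dimmest signal well above background. It compares group means and carries no sampling error. In LWT the agonist changed Esrrg by −1.27 (adjusted p = 0.0502).

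The Esrrg difference rests on a dim probe at chr1:190038683-190038742 (mm9), from base 5273 of its transcript. A second probe nearby was well above background on 3 of 6 LWT vehicle arrays and on 0 of 18 others, and another, at base 443 of its transcript, on 3, 1, 1 and 1 of 6 in the 4 groups. With normexp background correction the fitted differences shrank from −2.82 to −0.79 under vehicle and from −2.10 to −0.47 under the agonist (adjusted p = 0.0722). In the deposited table they were −1.06 (adjusted p = 0.00984) and −0.72 (adjusted p = 0.0258). With no filter on dim probes the probe at base 443, itself dim but of slightly higher mean signal, stood for the gene. It gave −0.62 (adjusted p = 0.997) under vehicle and 0.03 (adjusted p = 0.988) under the agonist.

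The ERR target list, genes of respiration and the citric acid cycle with Esrra itself among them, held 15 tested genes. In LWT 6 rose and 2 fell, and in LKO 4 rose and 4 fell, with medians of 0.11 and −0.10. The interaction was called for 5, all lower in LKO, against 3.24% of all genes, with Pdk4, Cycs, Acadm and Suclg1 among them. Cycs, cytochrome c, rose by 0.62 in LWT and 0.20 in LKO. Fh1, fumarase, rose by 1.15 in both. Mdh2 and Atp5b were not called, with changes between −0.01 and 0.14. Pdk4 and Acadm are also known PPARα targets.

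**Figure D3:**
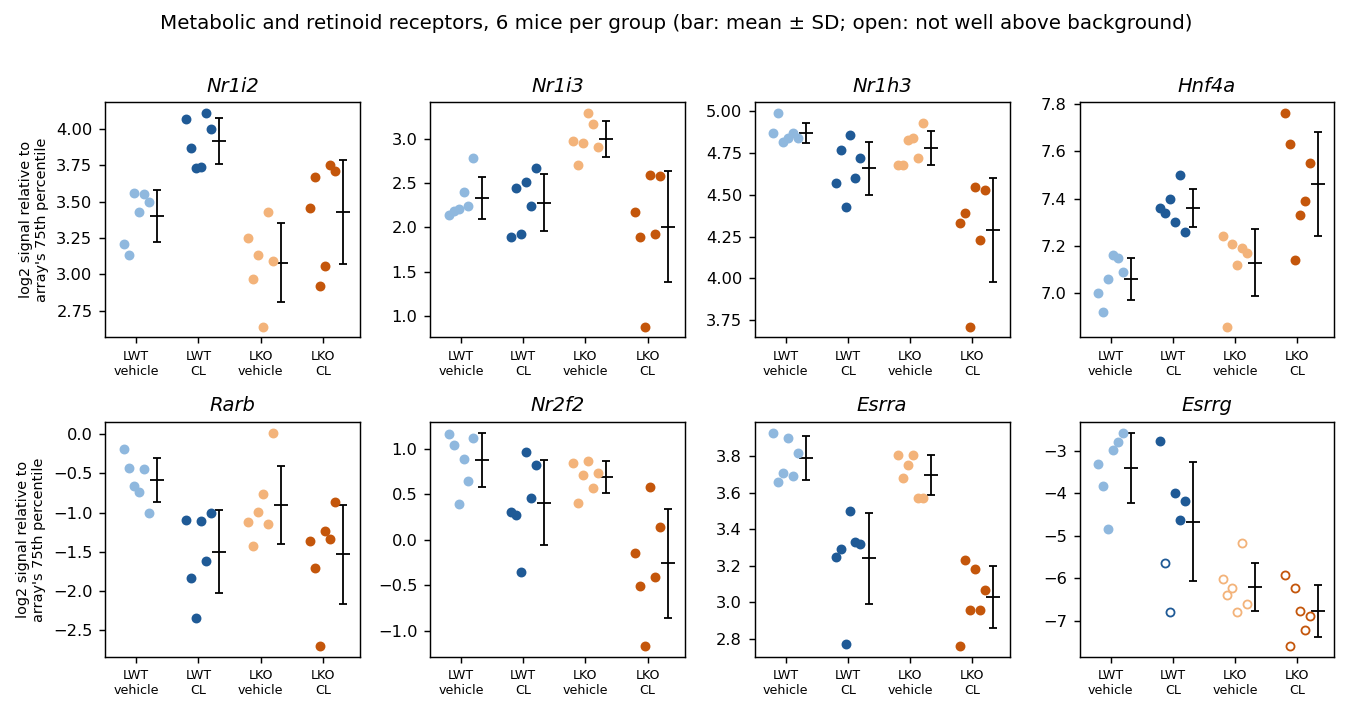
Level of 8 metabolic, retinoid and orphan receptors in each of 24 mice, with the mean and SD of each group of 6; open points were not well above background. All 12 LKO points of Esrrg are open, and LKO agonist replicate 3 is the lowest of its group for Nr1i3 and Nr1h3.

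Hnf4a, the master regulator of hepatocyte identity, rose slightly. Its levels were 6.92, 7.07 and 7.16 in LWT vehicle and 7.26, 7.35 and 7.50 with the agonist, with no overlap. In LKO they were 6.86, 7.18 and 7.24 and 7.14, 7.47 and 7.76, with overlap. The change was 0.30 (SE 0.09, adjusted p = 0.00936) in LWT and 0.33 (SE 0.09, adjusted p = 0.00396) in LKO. The second probe gave 0.29 (not called) and 0.45. The LWT call depended on the scaling, at 0.19 (adjusted p = 0.0882) with quantile normalization and 0.22 (adjusted p = 0.0555) in the deposited table.

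Hnf4g, its paralogue, lay near background, well above it on 1, 3, 3 and 4 of 6 arrays. Its change of 0.68 in LWT (adjusted p = 0.0342) lost its call without any of 6 mice and was 0.21 with normexp. Of 24 HNF4 target genes, 4 rose and 4 fell in LWT and 5 rose and 7 fell in LKO, with medians of 0.02 and 0.01. Among the 4 brightest, Serpina1a and Apoa2, a serum protease inhibitor and an apolipoprotein, were not called, at 0.14 and 0.15 in LWT and LKO for either gene. Fabp1, the liver fatty acid binding protein, rose by 0.19 in LWT, with 0.06 in LKO, and Slc10a1, the bile acid importer, rose by 0.21 in LKO, with 0.13 in LWT.

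Rora, a receptor that activates clock and lipid genes, was not called, at 0.31 (95% interval 0.04 to 0.59, adjusted p = 0.0653) in LWT and 0.25 (−0.02 to 0.53) in LKO. Its second probe was called in LWT at 0.43 (adjusted p = 0.00955). Rorb was well above background on 0 of 24 arrays. Of 13 ROR target genes, 4 rose and 1 fell in LWT and 4 rose and 3 fell in LKO, with medians of 0.12 and 0.20. Insig2, which retains SREBP precursors in the endoplasmic reticulum, rose by 2.99 and 2.39. Avpr1a, a vasopressin receptor, changed by −0.36 in LWT and rose by 1.16 in LKO, and was the list's gene called for the interaction.

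Of the retinoic acid receptors, Rara and Rarb fell in LWT and Rarg was not called. Rara was at 2.84, 2.92 and 3.42 in LWT vehicle and at 1.95, 2.46 and 2.75 with the agonist, with no overlap, and its level fell by 0.63 (SE 0.16, adjusted p = 0.00314). The LKO mice were at 2.82, 3.05 and 3.38 and at 2.10, 2.78 and 3.01, and the change of −0.39 was not called (adjusted p = 0.0579), although the second probe was called at −0.67 (adjusted p = 0.0102). Rarb was at −1.0, −0.55 and −0.19 in LWT vehicle and at −2.34, −1.36 and −1.01 with the agonist, just without overlap. Its level fell by 0.92 (SE 0.28, adjusted p = 0.0115). In LKO the change was −0.63 (adjusted p = 0.0764), and −0.79 (adjusted p = 0.00562) with the second probe. Rarg stood at 0.05 (−0.41 to 0.51) and −0.23 (−0.69 to 0.23).

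Of 16 tested genes of retinoid handling and RAR response, Rarb included, 1 rose and 4 fell in LWT and 2 rose and 4 fell in LKO, with medians of −0.13 and −0.16. Dhrs3, a retinaldehyde reductase, fell by 1.04 in LWT and 1.27 in LKO. Rbp4, the plasma retinol carrier, changed by 0.07 and 0.04. By the kind of bound used for Esrrg, Cyp26a1, whose upstream element is printed beside that of Rarb, was at least 10.9-fold lower with the agonist in LWT. There 0 of 6 treated arrays were well above background. In LKO 1 of 6 treated arrays was well above background, and no exact size is given. The limma fit, which includes such dim signals, called Cyp26a1 lower in LWT (adjusted p = 4.79e-07) and LKO (adjusted p = 0.000108). Its probe passed the filter on dim probes only through vehicle groups. A probe tested here had to be brighter there, and both calls rest on that. Stellate cells hold most hepatic vitamin A. Of 9 stellate markers, 3 were higher and 1, Lrat, was lower in LWT, and 3 were higher in LKO. Their summed signal was 85.4 to 112 and 104 to 133 in LWT, and 78.9 to 110 and 105 to 131 in LKO, under vehicle and agonist in that order. Their part in the retinoid result was not tested.

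The liver X receptors sense oxysterols and induce lipogenic and cholesterol efflux genes. Nr1h3 (LXRα) was at 4.82, 4.85 and 4.99 in LWT vehicle and at 4.43, 4.66 and 4.86 with the agonist, and the change of −0.21 was not called (adjusted p = 0.13). Among LKO mice it was at 4.68, 4.77 and 4.93 and at 3.71, 4.36 and 4.55, with no overlap, and its level fell by 0.49 (SE 0.11, adjusted p = 0.000856). Nr1h2 (LXRβ) rose by 0.20 in LKO (SE 0.07, adjusted p = 0.0322) and changed by 0.14 in LWT. Its LKO call was lost without any of 5 mice and was 0.06 with the mean of its kept probes.

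Of 14 LXR target genes, Nr1h3 included, 3 rose and 5 fell in LWT and 0 rose and 7 fell in LKO, with medians of −0.03 and −0.28. Srebf1, the lipogenic transcription factor, fell by 1.96 and 3.21, and the interaction was called for it and for Lpcat3, a phospholipid remodelling enzyme that rose by 0.49 in LWT and fell by 0.77 in LKO. Fasn, fatty acid synthase, fell by 1.21 and 1.06. Scd1, the delta-9 desaturase, changed by 0.23 and 0.29 and was not called. Srebf1 and Fasn are also insulin-responsive.

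Nr1i2 (PXR) and Nr1i3 (CAR), which sense drugs and induce cytochrome P450 genes, moved differently. Nr1i2 was at 3.13, 3.46 and 3.56 in LWT vehicle and at 3.73, 3.94 and 4.11 with the agonist, with no overlap, a rise of 0.52 (SE 0.14, adjusted p = 0.00606). In LKO it was at 2.64, 3.11 and 3.43 and at 2.92, 3.56 and 3.75, and 0.34 was not called (adjusted p = 0.0626). Without LKO agonist replicate 3 it was called, at 0.44 (adjusted p = 0.0132).

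Nr1i3 was at 2.14, 2.22 and 2.78 in LWT vehicle and at 1.89, 2.34 and 2.67 with the agonist, a change of −0.05 (95% interval −0.49 to 0.40). In LKO it was at 2.71, 2.96 and 3.29 and at 0.88, 2.05 and 2.59, with no overlap, and the level fell 1.99-fold (log2 SE 0.22, adjusted p = 0.000861). LKO vehicle livers held the highest values, which only 1 LWT vehicle mouse overlapped. A second probe gave 0.09 in LWT and −1.37 in LKO.

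Of 16 tested CAR and PXR target genes, 2 rose and 3 fell in LWT and 4 rose and 5 fell in LKO, with medians of −0.02 and −0.25. The interaction was called for 0 of 16, and 5.41% of all genes. The 4 brightest, Cyp2a5, Gstm3, Alas1 and Aldh1a1, a P450, a glutathione transferase, the first enzyme of haem synthesis and an aldehyde dehydrogenase, were not called for the agonist in either genotype, except Aldh1a1, which fell by 0.59 in LKO. Under CL316243, Alas1 was lower in LKO than in LWT by 0.78 (adjusted p = 0.0336). Vdr, the vitamin D receptor, was well above background on 1 and 2 of 24 arrays with its 2 probes. On the list of vitamin D genes, 0 rose and 2 fell of 7 in LWT, and 2 rose and 3 fell in LKO, with medians of −0.36 and −0.02. Cyp2r1, a vitamin D 25-hydroxylase, fell by 0.69 and 0.38. S100g was called higher in LKO and was the list's gene called for the interaction, higher in LKO.

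Among the orphan receptors, Nr2c2 (TR4) rose and Nr2f6 and Nr6a1 fell in both genotypes. Nr2c2 was at −0.30, 0.24 and 0.38 in LWT vehicle and at 0.35, 0.68 and 1.01 with the agonist. Among LKO mice it was at −0.19, 0.18 and 0.45 and at 0.59, 0.74 and 0.79, with no overlap. The change was 0.54 (SE 0.12, adjusted p = 0.00115) in LWT and 0.55 (SE 0.12, adjusted p = 0.00102) in LKO, and 2 more probes gave 0.37 to 0.54. Nr2c1 (TR2), its partner in a repressor dimer, was not called, at −0.11 (−0.36 to 0.13) and −0.15 (−0.39 to 0.10).

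Nr2f6 (EAR2) was at 4.81, 4.98 and 5.21 in LWT vehicle and at 4.02, 4.43 and 4.96 with the agonist. LKO livers were at 4.79, 5.04 and 5.20 under vehicle and at 3.64, 4.38 and 4.72, with no overlap. Its level fell by 0.56 (adjusted p = 0.0093) and 0.67 (adjusted p = 0.0023), but the second probe was not called, and with the mean of both the LWT change was −0.35 (adjusted p = 0.104). Nr2f2 (COUP-TFII), prominent in venous endothelium and stromal cells, changed by −0.46 in LWT (adjusted p = 0.123) and fell by 0.95 in LKO (adjusted p = 0.00243). Of 7 sinusoidal endothelial markers, 1 was lower in each genotype, Kdr, 2 were higher in LWT and 1 in LKO. Their summed signal was 42.6 to 45.4 and 44.4 to 51.8 in LWT and 37.3 to 49.3 and 37.6 to 51.4 in LKO, under vehicle and agonist, and their part in the Nr2f2 result was not tested. Nr2f1 was not called, at −0.18 and −0.06. Nr6a1 (GCNF), known from germ cells and early embryos, fell by 0.62 (adjusted p = 0.000639) and 0.50 (adjusted p = 0.00367).

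Of 11 tested genes on the list of COUP-TF and testicular receptor partners, 5 of them members described above, 3 rose and 1 fell in LWT and 2 rose and 2 fell in LKO, with medians of 0.25 and −0.03. Zfpm1, a cofactor that binds COUP-TF proteins, rose by 0.69 in LWT, with −0.03 in LKO. Gas6, a ligand of TAM receptor kinases, changed by 0.33 in LWT and rose by 1.24 in LKO.

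**Figure D4:**
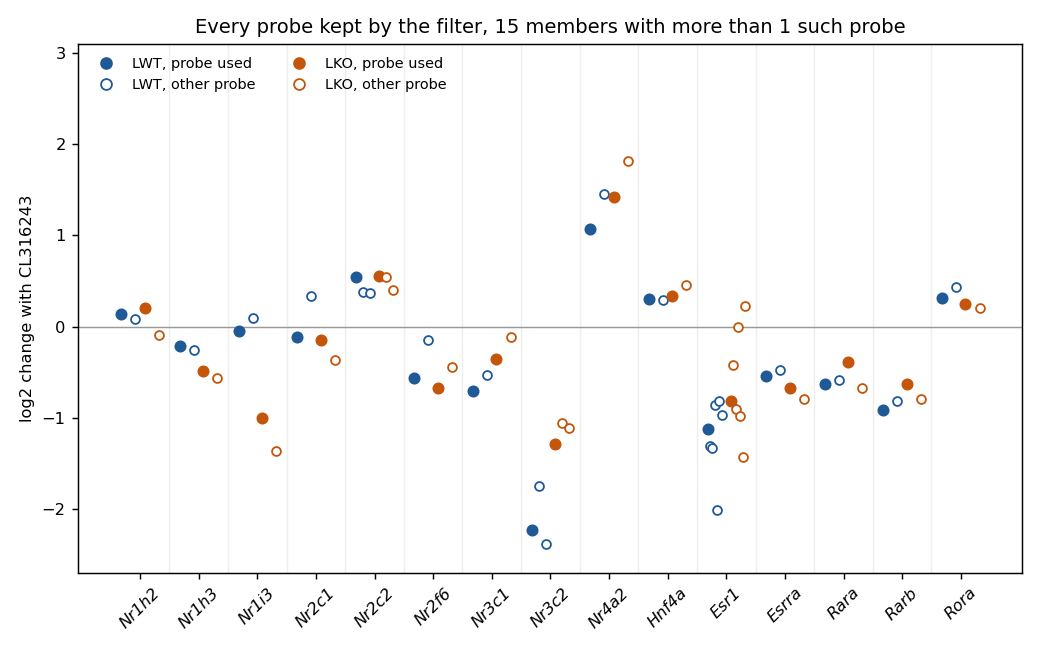
Log2 change with CL316243 for all 37 kept probes of the 15 members with more than 1 kept probe, in LWT (blue) and LKO (orange); filled points are the probes used. The highest and lowest Esr1 points in LKO and 1 of the open Nr3c2 points are dim probes, near background in several groups; the 3 probes of Nr2c2 lie between 0.37 and 0.55.

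Under vehicle, 1 of 25 members differed between the genotypes: Esrrg, described above, was lower in LKO (4% of members against 1.18% of all genes, 0.398% higher and 0.778% lower). As this probe was kept only through the LWT groups, and 0 members were called with no filter on dim probes, nothing is read from that share. The next were Nr1i3 at 0.68 (95% interval 0.23 to 1.12, adjusted p = 0.199) and Nr1i2 at −0.31 (adjusted p = 0.582). Nr1i3 was called with only the vehicle groups fitted (adjusted p = 0.0182) and with array weights (0.69, adjusted p = 0.00809). It was also called without both agonist mice numbered 3 (adjusted p = 0.0216). Those mice are not in this comparison, so its size stayed at 0.68. The median absolute difference was 0.12 for members and 0.09 for all genes. The vehicle groups did not overlap for Esrrg, 1 of 25 members against 1.8% of all genes.

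Under CL316243, 5 of 25 members differed (20% against 15.9% of all genes), 2 higher and 3 lower in LKO, against 7.74% higher and 8.17% lower of all genes. Nr4a1 was higher in LKO by 1.54 (SE 0.34, 2.91-fold, adjusted p = 0.00233) and Nr3c2 by 0.84 (SE 0.23, 1.79-fold, adjusted p = 0.0134). Nr1h3 was lower by 0.37 (adjusted p = 0.0177), Nr1i2 lower by 0.49 (adjusted p = 0.0203) and Esrrg lower as bounded above. As the Esrrg probe was kept only through the LWT groups, nothing is read from the share of 20% or from the count of lower members. For 0 of 25 members were the 2 agonist groups free of overlap, against 6.57% of all genes. The Nr4a1 difference was 3.27, 0.89 and 0.46 on slides 1, 2 and 3, and the Nr3c2 difference was −0.33, 1.56 and 1.28, so that on slide 1 its direction turned. The Nr1i2 call was lost without LKO agonist replicate 4 (adjusted p = 0.0538). With only these 2 groups in the fit, Nr1h3, Nr1i2 and Nr3c2 were not called, and the Nr1h3 call was also lost with quantile normalization and in the deposited table. The Nr3c2 call was lost with the mean of its probes (0.65, adjusted p = 0.104). Nr2f2, at −0.67 (adjusted p = 0.053), was called without both agonist mice numbered 3 (−0.64, adjusted p = 0.0243). Leaving out LWT agonist replicate 3 raised the count to 8.

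**Figure D5:**
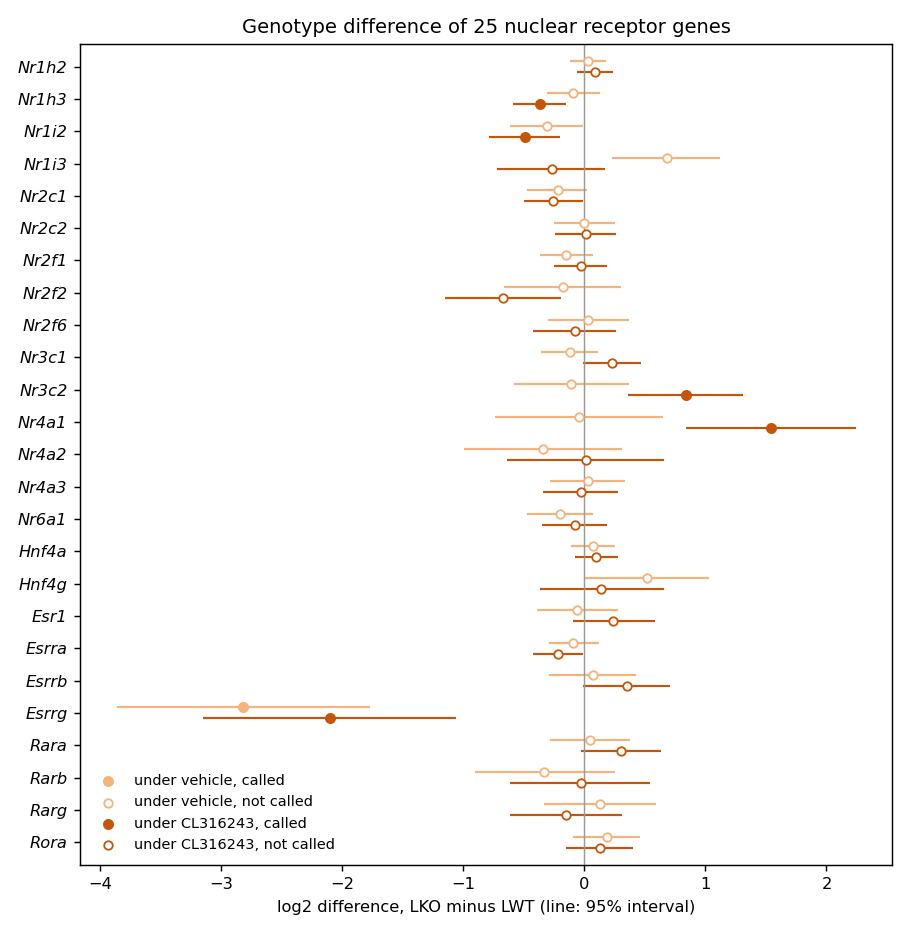
Log2 difference LKO minus LWT of the 25 members under vehicle (light) and under CL316243 (dark), with 95% intervals; filled points were called. Esrrg is the filled point under vehicle, and its values are fitted ones that include signals not well above background, so they are no bound on its size.

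The difference between the effects of the agonist in LKO and LWT was called for 0 of 25 members by limma, against 5.41% of all genes (2.17% higher and 3.24% lower), and 4 had an unadjusted p under 0.05. Nr4a1 came nearest, at 1.58 (95% interval 0.60 to 2.57, adjusted p = 0.0534), a larger rise in LKO. It was called under 7 of 14 other settings and in 3 of 24 cases with 1 mouse left out, with adjusted p between 0.017 and 0.111, and within slides the value was 3.28, 1.24 and 0.24. Nr1i3 followed at −0.95 (−1.58 to −0.32, adjusted p = 0.0743), and its second probe at −1.46 (adjusted p = 0.0217 over all probes). The Nr1i3 value was called with array weights (adjusted p = 0.0131), the mean of its probes (−1.20, adjusted p = 0.0349), the replicate block (adjusted p = 0.0279), without both agonist mice numbered 3 (−0.80, adjusted p = 0.034), and without LKO agonist replicate 4 or 6 alone (adjusted p = 0.0389 and 0.0384). Nr3c2 was at 0.94 (0.27 to 1.61, adjusted p = 0.0991), a smaller fall in LKO, and Nr3c1 at 0.35 (0.02 to 0.69, adjusted p = 0.247). So a call in one genotype and not in the other was not shown to be a difference in the agonist's effect in the fit reported. This holds for Nr1h2, Nr1h3, Nr1i2, Nr1i3, Nr2f2, Hnf4g, Rara and Rarb, although for Nr1i3 the settings just named did call such a difference.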

How the data were processed

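RNA from 24 livers was labelled with Cy3 from 200 ng and hybridised to 1 single-colour array per mouse. The deposited scanner tables hold spot intensities, background-subtracted per the file headers. They come from Feature Extraction (Agilent) 10.10.1.1, according to the submitters' processing notes. The series table the authors deposited holds log2 values and was used as an alternative. Spots marked as outliers were removed, log2 intensities were set relative to each array's 75th percentile and spots of a probe were averaged. A probe was kept where 4 or more of the 6 arrays in any 1 group read it well above background and each group had 3 or more values (32037 of 56605), and the probe of highest mean signal stood for its gene. The 28 members had 67 probes, 47 of them kept. One mean per group was fitted to all 24 arrays in limma 3.58.1 (R 4.3.3), with Benjamini-Hochberg adjustment over 21331 genes in each of 5 comparisons, and the fit was tested on simulated data. Fold values are 2 to the power of the log2 difference. The number of arrays limits the precision: the median standard error was 0.13 for a difference of 2 groups and 0.19 for the interaction.

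The members and gene lists were chosen with earlier results of these data known. All members are named; of each list, the 4 genes of highest mean signal or some of them are given with values, and other genes are named from the calls after their values were seen. Probe positions are those of the array annotation, build mm9. All 28 member symbols matched RefSeq symbols. Promoter windows came from RefSeq, GRCm38.p6, used for sequence only and never joined to mm9 positions.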

Additional observations from a re-analysis of the deposited data

Results flagged for a closer look

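Of 100 groups of 6 mice (25 members in 4 groups), 7 held 1 mouse far from the other 5 by Dixon's criterion, where chance alone marks about 1 in 20. For Nr1h2, LWT agonist replicate 3 stood at 3.62 with the next mouse at 3.35, and LKO vehicle replicate 1 at 3.37 with the next at 3.27. For Nr1h3, LWT vehicle replicate 2 was at 4.99 and the next at 4.87. For Hnf4a, LKO vehicle replicate 2 was the lowest at 6.86, with the next at 7.12. LKO agonist replicate 3 was the highest for Hnf4g at −2.96, with the next at −4.17, and the lowest for Rarg at −1.12, with the next at 0.31. For Esrra, LWT agonist replicate 3 was the lowest at 2.77, with the next at 3.25. No member had an interaction called, and 0 moved in opposite directions in every mouse of the 2 genotypes.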

How the results depend on the processing

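Besides leaving out single mice, 15 other settings were tried. With 14 members called in each genotype, asking also for a 1.5-fold change left 9 in LWT and 8 in LKO, and the other settings gave 12 to 18. The 5 calls between genotypes under CL316243 became 8 with array weights, 3 with the 1.5-fold condition and 2 with only those groups fitted. The 1 call under vehicle became 2 with array weights or with only those groups fitted, and 0 with no filter on dim probes. The interaction, with 0 calls, gave 4 with array weights and 1 each with a filter at 6 of 6 arrays, an intensity trend with a robust prior, the mean of kept probes, normexp, quantile normalization and the deposited table. Without both agonist mice numbered 3, an alternative chosen after seeing the data, the counts were 15 in LWT, 15 in LKO, 8 and 2 between genotypes under agonist and vehicle, and 1 for the interaction. Leaving out 1 mouse at a time gave 13 to 16 in LWT, 13 to 16 in LKO, 5 to 8 and 1 to 1 between genotypes, and 0 to 2 for the interaction. A replicate block on the shared mouse numbers gave 15, 17, 6, 1 and 2 in the same order. The main fit did not pair mice by number. Deviations of same-numbered mice in different groups correlated by 0.06 on average (36 pairs, 11 of them over 0.1). For different-numbered mice the average was −0.01 (180 pairs, 20 of them over 0.1). Whether the numbers pair the mice was not settled. Slide as a block gave 15, 14, 5, 1 and 0. The direction turned for Nr3c2 between genotypes under the agonist on slide 1 alone (−0.33) and for Esrrg with no filter on dim probes (0.03), where another probe stood for the gene. Other causes of these changes were not tested. Members near background, Hnf4g, Esrrg, Rorb, Vdr and Pgr, are limited by signal.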

Other observations

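Of 21 other nuclear receptor superfamily genes on a second list, 18 were tested. With CL316243, 3 were called higher and 6 lower in LWT, with a median log2 change of −0.32, and 1 higher and 9 lower in LKO, with a median of −0.40. Ppard, a ubiquitous PPAR, and Thrb, the main hepatic thyroid hormone receptor, were lower in both genotypes. Rxra, the heterodimer partner of many of the members, changed by −0.10 in LWT and 0.03 in LKO and was not called in either. Rxrb rose by 0.20 in LWT, with 0.16 in LKO. Nr1h4, the bile acid receptor FXR, changed by −0.28 in LWT and fell by 0.46 in LKO. The interaction was called for 2 of the 18, Pparg higher and Ppara lower in LKO.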
